A study of Mus musculus with 10 samples.

Results

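Slc25a39 is a mitochondrial carrier gene that the authors' deposited table of significant genes lists under its former symbol D11Ertd333e. All probe sets with that symbol were taken, which gave 1 of the 5478 genes that the table names and 4 of the 45037 probe sets on the array, namely 1439410_x_at, 1456176_x_at, 1447783_x_at and 1453111_a_at. The table holds 7806 probe sets chosen by the authors on the difference between GeO2 and control (17.3% of the array), with deposited p-values of up to 0.04997. The difference between the groups at these 4 probe sets therefore chose them, and it is given below as a description without a test.

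RNA came from the cochlea of male CBA mice, an inbred strain, 6 months of age. The GeO2 group (5 samples) had received 0.15% germanium dioxide in the diet for 4 months, and the control group (5 samples) normal chow. There was 1 Affymetrix array per sample, and the labels do not say whether a sample is 1 animal or a pool. The p-values below therefore reflect sample-to-sample spread alone, part of which may be technical, and the number of arrays limits their precision. Whole cochlear RNA was used, so fewer cells of a type and less RNA per cell cannot be told apart.

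SLC25A39 lies in the inner mitochondrial membrane and imports glutathione, the main small thiol of the cell, which is made in the cytosol. In human cells its protein is stabilised when glutathione is low and otherwise degraded with the help of the protease AFG3L2. Mitochondrial glutathione is needed for iron-sulphur cluster proteins, and in zebrafish and mice loss of the gene impairs haem synthesis and red cell formation. In the cochlea, glutathione is one of the defences against oxidants formed by the highly active mitochondria of the organ.

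The 250 bases before the start of mouse Slc25a39, from RefSeq on GRCm38.p6 (minus strand, chr11:102407518-102407767), are shown because Slc25a39 is a haem-related gene, and the motifs searched are those of factors known to act in red cell precursors, in the antioxidant response or on mitochondrial genes.
Slc25a39 promoter: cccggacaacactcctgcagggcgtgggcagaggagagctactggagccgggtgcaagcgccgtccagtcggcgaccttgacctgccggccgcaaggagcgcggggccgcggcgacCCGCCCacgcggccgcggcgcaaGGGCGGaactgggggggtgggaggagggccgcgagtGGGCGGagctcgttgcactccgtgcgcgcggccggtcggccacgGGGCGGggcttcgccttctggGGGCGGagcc
Capitals mark the matches to the GC box GGGCGG on either strand. There are 5, beginning 134, 111, 75, 31 and 10 bases before the start, and 1.93% of the 32851 promoter windows of this length hold as many. At least 1 GC box is in 32.7% of windows. No match on either strand was found in this window to the GATA motif GATAA (22.6% of windows hold one), the extended CACCC motif CCACACCC (3.20%), the antioxidant response element TGACNNNGC (10.2%), the full palindromic NRF1 motif (3.74%) or the TATA motif TATAAA (12.4%). The shorter core CACCC is present on the other strand, read as gggtg in the printed sequence. Its share among all windows was not counted, and other forms of these motifs were not searched. G and C make up 77.2% of the window, against a median of 52.4% over all windows.

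In GeO2 cochleae the signal of Slc25a39 was 41.7% to 42.6% of the control mean at 3 of the 4 probe sets, the 3 brightest. At 1453111_a_at it was 60.35%. Signals are linear array units as the authors deposited them, and levels of different probe sets cannot be set against each other. At 1439410_x_at the GeO2 arrays read 13323, 10795, 12112, 10139 and 11090.2 units (replicates 1 to 5), against 30683, 25432, 27249, 25794 and 25823 units on the control arrays. Every GeO2 array lay below every control array, and the highest GeO2 signal was 52.4% of the lowest control signal. The means were 11492 ± 1246 units in GeO2 and 26996 ± 2175 units in control (SD, n = 5 each), a log2 difference of −1.23 (SE 0.09), or 2.35-fold lower in GeO2. Log2 differences here and below are GeO2 minus control on log2(signal + 16), which slightly understates changes of dim probe sets.

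The probe set 1456176_x_at gave 12089, 8309, 8023, 7533 and 8402 units in GeO2, against 23974, 19604, 19272, 21547 and 20837 units in control. GeO2 replicate 1 stood above the other GeO2 arrays, and the groups did not overlap. The mean was 8871 ± 1830.2 units in GeO2 and 21046.5 ± 1877 units in control (SD, n = 5 each), with a log2 difference of −1.26 (SE 0.12), or 2.40-fold lower.

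The dimmer probe set 1447783_x_at read 3397, 2167, 1936, 2009.7 and 2527 units in GeO2, against 7179, 4879, 5455, 5785 and 5588 units in control. The groups did not overlap here either, and replicate 1 was the highest array of each group, as at both brighter probe sets. The mean was 2407 ± 598 units in GeO2 and 5777 ± 853 units in control (SD, n = 5 each), a log2 difference of −1.28 (SE 0.16), or 2.42-fold lower.

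The dimmest probe set, 1453111_a_at, gave a smaller difference. Its signals were 709.8, 951.5, 1442, 663.6 and 835.5 units in GeO2, against 1594, 1944, 1143, 1066 and 1880.2 units in control. GeO2 replicate 3 exceeded control replicates 3 and 4, so the groups overlapped and 23 of the 25 pairwise comparisons were lower in GeO2, against 25 of 25 at the other 3 probe sets. The mean was 920.5 ± 312.5 units in GeO2 and 1525 ± 407 units in control (SD, n = 5 each), with a log2 difference of −0.73 (SE 0.23), or 1.66-fold lower. In Affymetrix naming the suffix x marks sets with probes that can match other transcripts, and the suffix a marks sets whose probes match several transcripts of 1 gene. The 3 probe sets with the larger difference all carry the suffix x, and 1453111_a_at is the only member without it. Whether other transcripts add to the signal of those 3 was not tested, so the size of the fall depends on the probe set.

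**Figure D1:**
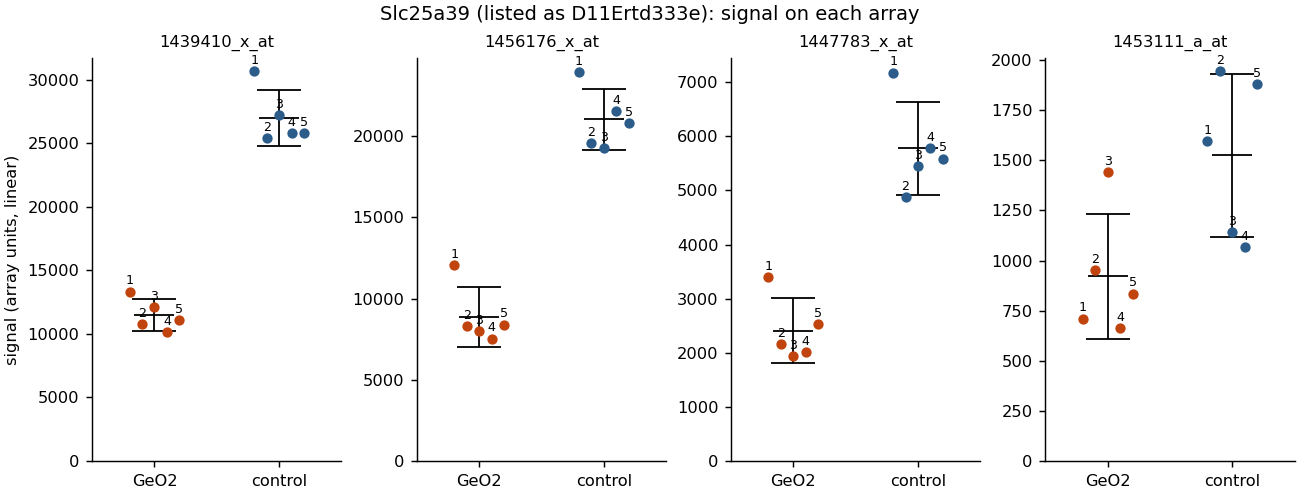
Signal of the 4 Slc25a39 probe sets (linear array units, axes from 0) on each array, GeO2 left of control, with the replicate number at each point and the mean and SD as bars (n = 5 each). At 3 probe sets all GeO2 arrays lie below all control arrays, and at 1453111_a_at GeO2 replicate 3 lies above control replicates 3 and 4.

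The authors' deposited table gives fold changes of −2.3 for 1439410_x_at and 1447783_x_at, −2.4 for 1456176_x_at and −1.6 for 1453111_a_at, where the minus sign means lower in GeO2. Of these, 1453111_a_at has the deposited p-value closest to the limit of the table, 0.02995. Probe sets just outside the table carry no name here, so none can be given for Slc25a39. All 4 probe sets were bright enough to enter the fit across 27022 probe sets. For context, 16.3% of these passed limma at a Benjamini-Hochberg adjusted p under 0.05, 7.81% lower and 8.50% higher in GeO2. Groups did not overlap, with GeO2 lower, at 5.62% of all probe sets tested, beside 3 of 4 here, a count that follows from the way the members were chosen. The log2 difference was lower than that of 1439410_x_at at 0.970% of the probe sets tested, and lower than that of 1453111_a_at at 3.99%.

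Expressed relative to the control mean of each probe set, GeO2 replicate 1 stood at 49.4% to 58.8% over the 3 brighter probe sets and GeO2 replicate 4 at 34.8% to 37.6%. Control replicate 1 stood at 114% to 124%. The other GeO2 arrays lay between 33.5% and 44.9%, and the other control arrays between 84.5% and 102%. The order of arrays was different at 1453111_a_at, where GeO2 replicate 3 reached 94.6% and control replicate 4 stood at 69.9% of the control mean.

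Within groups, 1439410_x_at was among the steadier probe sets of the array. The SD of its log2 values within groups was 0.13, and 6.89% of the probe sets tested had a lower one, where the median was 0.26. The SD within groups was 0.21 at 1456176_x_at, 0.27 at 1447783_x_at and 0.42 at 1453111_a_at. The mean log2 signal of 1439410_x_at lay above that of 97.15% of the probe sets tested, and across the members the SD rose as the signal fell. Steadiness was not compared at like brightness. Part of the authors' selection rests on this spread, so the low values are a description only.

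Deviations of the arrays from their group means do not depend on the difference between the groups, and they show how far the probe sets follow one another. The pair 1456176_x_at and 1447783_x_at moved together, with a Pearson r of 0.93 over 10 arrays (exact permutation within groups, two-sided, p = 0.00132, adjusted p = 0.0185 over 14 relations) and a Spearman rho of 0.88 (exact permutation p = 0.00167, adjusted p = 0.0233). Without GeO2 replicate 1 and control replicate 1, the arrays farthest from the median, r was 0.67. The adjusted p rose above 0.05 when any of GeO2 replicates 1, 2 and 5 or control replicates 1 and 4 was left out alone (up to 0.117, exact permutation). The brightest probe set, 1439410_x_at, gave r of 0.79 with 1456176_x_at (exact permutation p = 0.0159, adjusted p = 0.111; rho 0.50, p = 0.193) and 0.74 with 1447783_x_at (exact permutation p = 0.0285, adjusted p = 0.133; rho 0.54, p = 0.173). Those values rest on GeO2 replicate 1 and control replicate 1, without which r was 0.155 and −0.03. The relations of 1453111_a_at to the others were weak or negative and did not pass, with r of 0.10 to 1439410_x_at, −0.20 to 1456176_x_at and −0.37 to 1447783_x_at (exact permutation p = 0.807, 0.599 and 0.333; rho 0.20, −0.10 and −0.38, p = 0.603, 0.781 and 0.300).

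Transcripts of red cell precursors were lower in the same GeO2 arrays. Of 30 erythroid markers listed, 25 were measured, and 24 of these were lower at an adjusted p under 0.05 in limma, with a median log2 difference of −2.35. A gene counts as measured if the authors' table names a tested probe set for it, and among the 5116 genes named in this way 59.3% passed, 29.7% as lower and 29.6% as higher. Hba-a1, alpha globin, did not pass at its brighter probe set (−0.21, SE 0.09; 35964 units in GeO2 and 41438 units in control), while its other probe set was lower (−1.97, SE 0.39, adjusted p = 0.00558 in limma), and with the mean over the probe sets of each gene all 25 were lower. The largest falls were those of Trim10 (−3.14, SE 0.52), Epb42, a red cell membrane protein (−3.10, SE 0.56), Rhd, the Rh blood group protein (−3.09, SE 0.44), and Klf1, the erythroid transcription factor (−3.01, SE 0.37). The summed signal of the 25 genes ran from 71729.8 to 143887 units in GeO2 and from 156117 to 273161 units in control. The erythroid score, the mean log2 value of the 25 genes on an array, ran from 9.21 to 11.41 in GeO2 and from 11.52 to 12.64 in control.

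Of the Slc25a39 probe sets only 1439410_x_at was set against this score, and the relation did not pass the test within groups. The relation of the other members to the score within groups was not tested, so the result covers 1439410_x_at alone. The Pearson r between the deviations of 1439410_x_at and of the erythroid score was −0.10 (exact permutation p = 0.827, adjusted p = 0.927 over 14 relations) and the Spearman rho −0.21 (exact permutation p = 0.604) over 10 arrays. Without GeO2 replicates 2 and 3, the arrays farthest from the median score, r was 0.28. Within the GeO2 group the SD was 0.83 for the score and 0.15 for the log2 signal of 1439410_x_at, the steadiest member. It was 0.27 at 1456176_x_at, 0.33 at 1447783_x_at and 0.44 at 1453111_a_at. Without the score the log2 differences were −1.23 at 1439410_x_at, −1.26 at 1456176_x_at, −1.28 at 1447783_x_at and −0.73 at 1453111_a_at. With the erythroid score as a covariate in the fit, the log2 difference of 1439410_x_at was −1.28 (SE 0.19), that of 1456176_x_at −1.02 (SE 0.24), that of 1447783_x_at −1.01 (SE 0.32) and that of 1453111_a_at −0.89 (SE 0.48). In the same fit Fech, the last enzyme of haem synthesis, stood at −0.07 (SE 0.19) and the carrier gene Slc25a38 at −0.40 (SE 0.35), both outside the score, and the differences between these genes and Slc25a39 were not tested. The score goes with the group (r of −0.87 with group membership over the 10 arrays), and the median SE was 0.34 in that fit, against 0.17 without the score, and 0 of 27022 probe sets passed limma's adjusted p there, with 3075 at an unadjusted p under 0.05 (4408 and 8409 without the score).

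**Figure D2:**
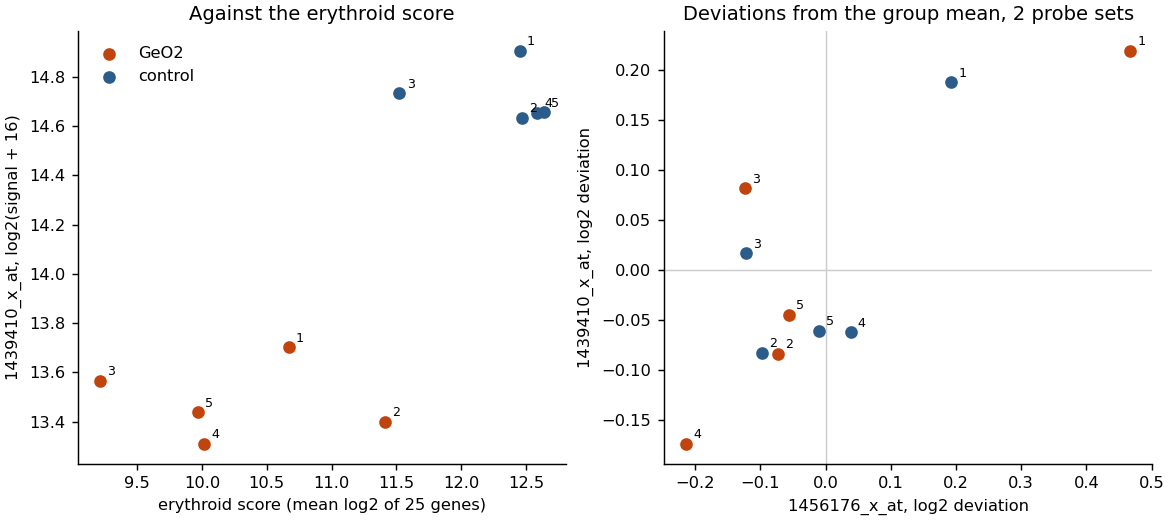
Left, log2(signal + 16) of 1439410_x_at against the erythroid score, the mean log2 value of 25 genes, and right, log2 deviations from the group mean of 1439410_x_at against 1456176_x_at, 1 point per array with its replicate number. The scores run from 9.21 to 11.41 in GeO2 and from 11.52 to 12.64 in control without overlap, and on the right replicate 1 of each group is at the upper end.

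Haem synthesis begins and ends in mitochondria. Of 16 genes listed for it and its mitochondrial transporters, 14 were measured. Of these, 11 were lower, 1 was higher and 2 did not pass (limma, adjusted p under 0.05), where 29.7% of all named genes were lower and 29.6% higher. The median log2 difference was −0.87, against −0.02 over all probe sets tested and −0.23 over all named genes. Alas2, the first enzyme of the pathway in red cell precursors, changed by −1.85 (SE 0.33), the gene of the mitochondrial transporter Abcb10 by −1.82 (SE 0.27) and Fech by −1.22 (SE 0.20). The glycine carrier gene Slc25a38, which supplies the first step, read 1415, 1368, 1007, 768.9 and 713.2 units in GeO2, against 2194, 2670.3, 1772, 2402 and 2937 units in control. Its groups did not overlap, and its log2 difference was −1.21 (SE 0.21, adjusted p = 0.00313 in limma). The gene that was higher was Clpx, a mitochondrial protease subunit that activates the first enzyme of the pathway (0.51, SE 0.12). Within groups the score of this list gave r of 0.03 with 1439410_x_at (exact permutation p = 0.927; rho −0.04, p = 0.924; r without control replicate 3 and GeO2 replicate 2, 0.24). The erythroid score, lower in the same GeO2 arrays, shares Alas2 with this list, and its part in these values was not tested beyond the fit above, in which the list median was −0.30.

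In the list for glutathione use and recycling, which also holds the thioredoxin reductase gene Txnrd2, more genes were lower than higher. Of 34 genes listed, 14 were measured, of which 7 were lower, 2 higher and 5 did not pass (limma, adjusted p under 0.05), and the median was −0.51. Among all named genes 29.7% were lower and 29.6% higher, and the median was −0.23. Gpx1, glutathione peroxidase 1, which reduces hydrogen peroxide with glutathione in the cytosol and mitochondria, averaged 8466 ± 2017 units in GeO2 and 34125 ± 5648 units in control (SD, n = 5 each), a log2 difference of −2.03 (SE 0.17, adjusted p = 0.000129 in limma). Lower values were also found for Glrx, a glutaredoxin that removes glutathione from proteins (−0.96, SE 0.16). Txnrd2, the thioredoxin reductase of mitochondria, stood at −0.80 (SE 0.18). Gsr, glutathione reductase, which returns oxidised glutathione to its reduced form, went the other way, with 5062 ± 1122 units in GeO2 and 2609 ± 555 units in control (SD, n = 5 each; log2 difference 0.95, SE 0.18, adjusted p = 0.0041 in limma). Within groups, the relation of 1439410_x_at to Gpx1 did not pass the test (r 0.15, exact permutation p = 0.740; rho −0.20, p = 0.634; r −0.425 without GeO2 replicate 4 and control replicate 3), nor did that to Gsr (r −0.22, exact permutation p = 0.570; rho −0.19, p = 0.634; r −0.48 without control replicate 3 and GeO2 replicate 3). The score of the list gave r of 0.60 (exact permutation p = 0.119, adjusted p = 0.416 over 14 relations; rho 0.22, p = 0.592), and 0.03 without GeO2 replicates 1 and 4.

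For the making and breakdown of glutathione itself, 5 of 16 listed genes were measured, of which 2 were lower, none higher and 3 failed to pass (median −0.25). Over all named genes the median was −0.23, with 29.7% lower and 29.6% higher. Gclm, the modifier subunit of the rate-limiting enzyme glutamate-cysteine ligase, read 2087, 3189.9, 2079, 2234 and 2096 units in GeO2, against 4552, 4052, 3380.1, 3759 and 3622 units in control. The groups did not overlap, although GeO2 replicate 2 came close to the lowest control, and the log2 difference was −0.74 (SE 0.14, adjusted p = 0.00486 in limma). Ggt7, a member of the gamma-glutamyltransferase family, stood at −0.97 (SE 0.27, adjusted p = 0.0285 in limma). Omitting any 1 of 7 arrays (GeO2 replicates 1, 3, 4 and 5 and control replicates 1, 3 and 5) ended that call, with limma's adjusted p reaching 0.0672. The catalytic subunit gene Gclc (−0.25, SE 0.10) and the glutathione synthetase gene Gss (0.36, SE 0.15) did not pass. The score of this list gave r of 0.06 with 1439410_x_at within groups (exact permutation p = 0.880; rho 0.13, p = 0.749; r without GeO2 replicate 2 and control replicate 5, 0.55). None of the 6 genes listed as other carriers proposed for glutathione or as factors in the turnover of SLC25A39 (Slc25a40, Slc25a10, Slc25a11, Afg3l2, Spg7 and Maip1) was named in the authors' deposited table, so their levels were not analysed here.

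Among 22 genes listed for mitochondrial iron handling and iron-sulphur cluster assembly, 12 were measured. Of these, 6 were lower, 1 was higher and 5 did not pass (limma, adjusted p under 0.05), and the median was −0.38. All named genes had a median of −0.23, with 29.7% lower and 29.6% higher. The late-acting assembly genes Iba57 and Isca1 changed by −0.83 (SE 0.18) and −0.71 (SE 0.11), and Hscb, a cochaperone of the transfer step, by −0.64 (SE 0.17). The call of Hscb ended on omitting any 1 of GeO2 replicates 2, 4 and 5 and control replicates 1 and 4 (limma's adjusted p reaching 0.0639). Its partner chaperone gene Hspa9 was higher by 0.83 (SE 0.125). The score of this list gave r of 0.36 with 1439410_x_at within groups (exact permutation p = 0.342; rho 0.31, p = 0.437; r without GeO2 replicate 4 and control replicate 3, 0.18).

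Slc25a39 belongs to the SLC25 family of mitochondrial carriers, of which 22 other genes were measured of 53 listed. In that family 8 were lower, 7 higher and 7 did not pass (limma, adjusted p under 0.05), and the median was −0.25. These values are near those of all named genes, 29.7% lower and 29.6% higher with a median of −0.23. Mtch2 counted as lower at its brighter probe set (−0.45, SE 0.135), while its other probe set stood at 0.35 (SE 0.14) and did not pass. With the mean over the probe sets of each gene, 7 were lower and 6 higher. None of the 22 had a lower log2 difference than 1439410_x_at (−1.23), but the 3 next in order lay within its SE of 0.09. Slc25a51, the mitochondrial NAD carrier, changed by −1.23 (SE 0.25), Ucp2, a carrier that limits mitochondrial oxidant formation, by −1.21 (SE 0.21), Slc25a38 by −1.21 and the uncoupling protein homologue Slc25a27 by −0.94 (SE 0.13). The order of Slc25a39, Slc25a51, Ucp2 and Slc25a38 is not settled by these errors. The carriers that were higher ran from 0.28 for Slc25a36 to 0.69 for Slc25a30.

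**Figure D3:**
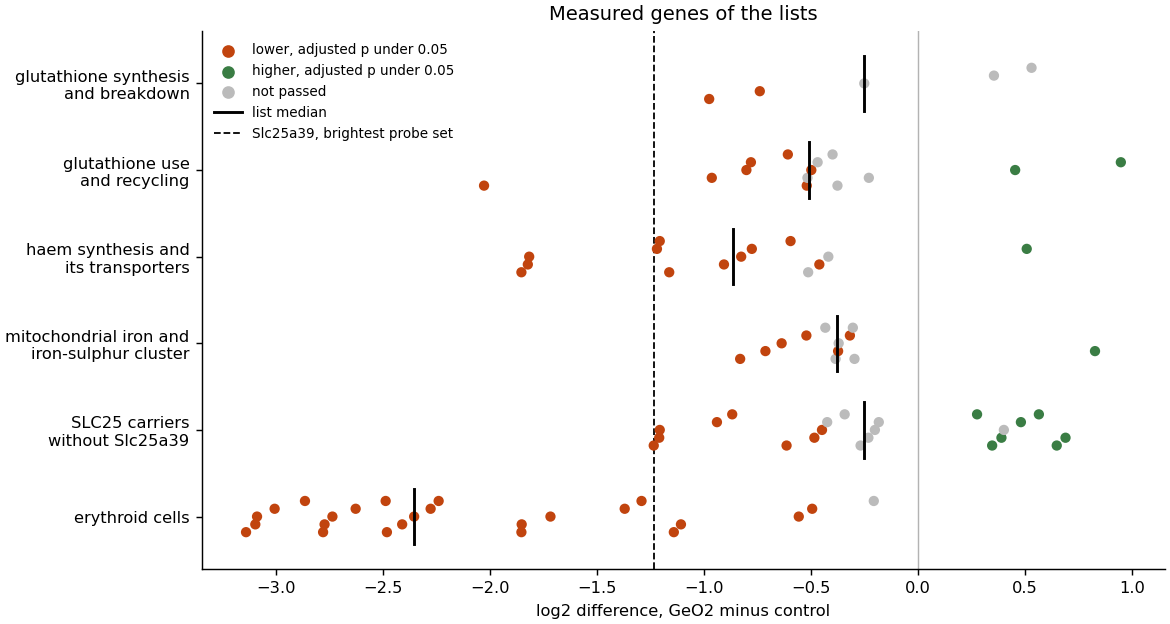
Log2 difference (GeO2 minus control) of each measured gene of 6 lists, with list medians as vertical bars and the brightest Slc25a39 probe set (−1.23) as the dashed line. The haem list has a median of −0.87 with 1 higher gene, Clpx at 0.51, and the erythroid list a median of −2.35 with no gene above 0.

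Some genes had a pattern over the arrays close to that of 1439410_x_at. Likeness was measured as Pearson r to that probe set over 10 arrays, among 6568 probe sets with 1 symbol of another gene, and is given as a description with no test, since the highest values of so many are chosen. Over log2 values, where the difference between the groups dominates, the 6 most alike were Atp5k, a subunit of ATP synthase, the copper chaperone gene Atox1, Hacd1, Coa3, an assembly factor of cytochrome c oxidase, Serf2 and Rnaseh2c, with r from 0.978 to 0.982, where 1% of the 6568 exceeded 0.947. Atp5k stood at −1.96 (SE 0.15) at that probe set and Coa3 at −1.06 (SE 0.12). Over deviations from the group means the 6 most alike were Elof1, ORF61, Krt8, Prss23, Hps1 and Zfhx3, with r from 0.897 to 0.944, where 1% exceeded 0.793. Their differences between the groups went both ways. Hps1 (−0.73, SE 0.22) and Zfhx3 (−0.51, SE 0.14) were lower in GeO2, Krt8, an epithelial keratin (1.18, SE 0.24), and Prss23 (0.62, SE 0.14) were higher, and Elof1 (−0.43, SE 0.16) and ORF61 (−0.27, SE 0.12) did not pass limma. Elof1, ORF61, Krt8, Prss23 and Hps1 were all highest in replicate 1 of each group, like the 3 brighter Slc25a39 probe sets. Zfhx3 was highest in GeO2 replicate 1 but not in control replicate 1. How far these values of r rest on replicate 1 of each group was not tested.

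On chromosome 11, RefSeq places Slc25a39 4 genes from Slc4a1, the red cell anion exchanger, and 7 from Atxn7l3, a subunit of a chromatin-modifying complex. Of the 20 nearest genes, 10 on each side, these 2 were measured and both were lower. A neighbour counts as measured only if the authors' table of significant genes names it, so a difference was part of the choice. Among all genes so named 29.7% were lower, and the direction of the other neighbours is not known here. Slc4a1 averaged 9359 ± 5489 units in GeO2 and 29709 ± 5439 units in control (SD, n = 5 each; log2 difference −1.85, SE 0.33, adjusted p = 0.0036 in limma). Atxn7l3 averaged 3490.0 ± 639 units in GeO2 and 5199 ± 1061 units in control (SD, n = 5 each; −0.57, SE 0.16, adjusted p = 0.0264 in limma), and its call ended on omitting any 1 of GeO2 replicates 3 and 5 and control replicates 1 and 3 (adjusted p reaching 0.0572).

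The array medians ran from 446.8 to 508.4 units and the trimmed means from 1495.57 to 1496.48 units. Cochlear markers were measured at 9 of 30 listed genes, of which 5 were lower, 2 higher and 2 did not pass (limma, adjusted p under 0.05). As above, a marker counts as measured only if the authors' table of significant genes names it. Among all genes so named, 29.7% passed as lower and 29.6% as higher. The potassium channel genes Kcne1 and Kcnq1 stood at −2.96 (SE 0.46) and −1.24 (SE 0.28), Esrrb at −0.67 (SE 0.21), and Otog, a tectorial membrane protein, was higher at 0.73 (SE 0.23). Otor, secreted in the inner ear, was lower (−0.64, SE 0.15), and the gap junction gene Gjb6 did not pass (41547 ± 3813 units in GeO2 and 36225 ± 2518 units in control, SD, n = 5 each). Dividing cells had 20 of 20 markers measured and lower (median −1.65), among them Ube2c (−2.62), Tk1 (−2.59), Ccnb2 (−2.12) and Nusap1 (−2.08), and their score gave r of −0.07 with 1439410_x_at within groups (exact permutation p = 0.872; rho −0.25, p = 0.531; r without control replicate 3 and GeO2 replicate 2, 0.16). Macrophages and neutrophils had 3 of 22 measured and all 3 higher, Cd177 at 1.95 (SE 0.58), Msr1 at 1.51 (SE 0.37) and Mpeg1 at 1.43 (SE 0.36). The direction of their other markers, which that table does not name, is not known here. B cells had 1 of 12 measured, Ebf1 at −0.71 (SE 0.14), and megakaryocytes 1 of 8, Pf4 at −1.37 (SE 0.32), both lower. Further Ebf1 probe sets stood at −0.45 (SE 0.17) and 0.40 (SE 0.15) and did not pass, so the direction of Ebf1 depends on the probe set. Bone had 3 of 12 measured and 1 higher, Dmp1 at 0.80 (SE 0.23), and skeletal muscle 0 of 12. Myelin and neurons had 3 of 12 measured and 2 lower, Cnp at −0.35 (SE 0.09) and Mbp at −0.73 (SE 0.14), but a second Mbp probe set was higher (0.95, SE 0.24, adjusted p = 0.0194 in limma), so that the direction of Mbp depends on the probe set. Omission of 1 array ended the call of Cd177 for 9 of the 10 arrays (all but GeO2 replicate 4), of Esrrb for 8 (all but GeO2 replicate 1 and control replicate 4), of Otog for 7 (all but GeO2 replicates 2 and 5 and control replicate 2), of Dmp1 for 6 (GeO2 replicates 1, 2, 3 and 5 and control replicates 2 and 5) and of Cnp for 3 (GeO2 replicate 5 and control replicates 3 and 5), with limma's adjusted p reaching 0.0897, 0.113, 0.101, 0.0678 and 0.0630 in that order of genes. Their part in the values of Slc25a39 was not tested.

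**Figure D4:**
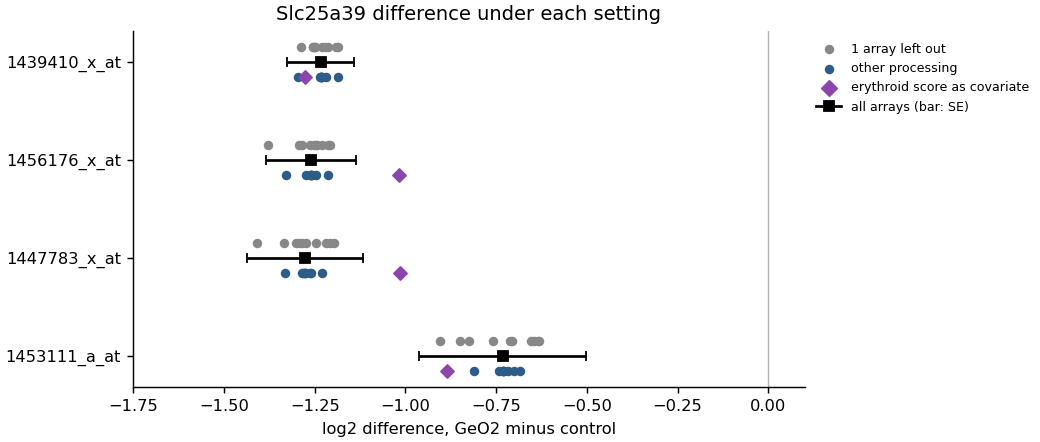
Log2 difference (GeO2 minus control) of the 4 Slc25a39 probe sets with all arrays (square, bar for the SE), with 1 array left out (grey), under other processing (blue) and adjusted for the erythroid score (diamond). All values lie below 0, between −1.41 and −0.63.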

How the data were processed

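The deposited values are linear intensities for each probe set on each array. GCOS 1.3 is named in the submitters' processing notes, and the scaling target and genome build are not given in the sources used here. No column of values was left unused. The authors' deposited table gives p-values and a signed fold change (a score, average of 25 pairwise comparisons per its closing note). Its symbols were updated through RefSeq (GRCm38.p6, names only): of 7095 single symbols, 4291 were current and 2354 a synonym of 1 gene. Log2(signal + 16) was fitted with limma 3.58.1 in R 4.3.3 (lmFit, eBayes with trend, two-sided) over 27022 probe sets, after the lowest 40% by mean were left out (18015), and the code was tested on simulated data. A gene is represented by its tested probe set with the highest mean. Relations within groups used all 14400 permutations within groups.

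The members and the gene lists were chosen with earlier results of these data known. Named genes are all members, up to 4 called genes of each list by size, Gpx1 and Gsr, the 6 most alike by each measure and named neighbours. Genes outside this rule (such as Gclc, Gss and Slc25a36) were named after their values were seen, and the promoter motifs were chosen after the values were seen, as were the 3 pairs among the dimmer probe sets. Alternatives were quantile normalization, a median shift, an offset of 1 or 64, all probe sets kept or the lowest 60% left out, a replicate block, array weights, the erythroid score as covariate, the mean over probe sets, and each array left out. The replicate numbers do not pair the samples. One gene that the rule names is not reported here.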

Additional observations from a re-analysis of the deposited data

Results flagged for a closer look

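An array far from the other 4 of its group, by Dixon's test at the 95% level, was found 10 times in the 112 groups looked at (56 probe sets, those of Slc25a39 and of the genes chosen by the naming rule, 2 groups each), where chance gives about 1 in 20. At the Slc25a39 probe set 1456176_x_at, GeO2 replicate 1 read 12089 units, where the next GeO2 array read 8402. Control replicate 3 was low at 7 probe sets, with 18746 units for Alas2, 1085 for Ccnb2, 17368.5 for Fech, 16170.2 for Isca1, 3244.5 for Klf1, 20043.5 for Slc4a1 and 1232 for Ube2c. The same array had the lowest erythroid score among controls (11.52). Slc25a39 at 1439410_x_at was not low there (27249 units, 100.9% of the control mean). At 1456176_x_at, however, this array was the lowest control (19271.5 units). It stood at 94.4% of the control mean at 1447783_x_at and at 74.9% at 1453111_a_at. Gclm was high in GeO2 replicate 2 (3189.9 units), and Otog in control replicate 2 (10013 units).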

How the results depend on the processing

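The log2 differences of the 4 Slc25a39 probe sets stayed below 0 under every alternative run. With single arrays left out they ran from −1.29 to −1.19 at 1439410_x_at, −1.38 to −1.21 at 1456176_x_at, −1.41 to −1.20 at 1447783_x_at and −0.91 to −0.63 at 1453111_a_at. Of the other alternatives, the erythroid score as a covariate moved 1456176_x_at to −1.02, by more than its SD within groups. With that covariate 0 higher and 0 lower probe sets passed limma, and 0 genes of any list. The counts of all probe sets ran from 1432 to 2481 higher and 1338 to 2374 lower with single arrays left out, and were 1432 and 1363 without GeO2 replicate 5 and 1478 and 1338 without control replicate 1. A block on replicate numbers gave 2288 higher and 2143 lower. The numbers only share a name: same-numbered arrays gave r from −0.05 to 0.17 and 1 of 5 correlated best with its own number. Among named genes the block ended the calls of Ggt7, Atxn7l3, Dmp1, Esrrb and Otog and gave one for Elof1. For glutathione synthesis and breakdown, 1 gene was lower with the block, 1 with the lowest 60% left out and 1 to 2 with single arrays left out (1 without GeO2 replicates 1, 3, 4 or 5 or control replicates 1, 3 or 5), and 1 was higher with the block, quantile normalization, the median shift or the lowest 60% left out, and 0 to 1 with single arrays left out. Glutathione use had 4 to 7 lower (4 without control replicate 1 or 2) and 1 to 2 higher (1 without GeO2 replicates 2, 4 or 5 or control replicates 1, 2 or 3), haem synthesis 7 to 12 lower (7 without GeO2 replicates 4 or 5 or control replicates 2 or 5), iron and iron-sulphur 3 to 7 lower (3 without GeO2 replicates 2, 4 or 5 or control replicate 1; 10 with array weights), and the SLC25 family 4 to 7 higher (4 without GeO2 replicates 4 or 5 or control replicates 1, 2 or 3; 4 with the median shift) and 6 to 10 lower, with single arrays left out. Of 50 named genes called, 40 were called whichever array was left out. The relation of 1447783_x_at to 1456176_x_at ran from 0.85 to 0.96 with single arrays left out and was 0.91 under quantile normalization (adjusted p = 0.0642, exact permutation). That of 1439410_x_at ran from 0.505 to 0.95 with 1447783_x_at (adjusted p = 0.0243 without GeO2 replicate 3, exact permutation) and from −0.12 to 0.40 with 1453111_a_at, and that of 1456176_x_at with 1453111_a_at from −0.42 to 0.13. With 1439410_x_at, single arrays left out gave −0.35 to 0.09 for the erythroid score (0.057 under quantile normalization), −0.298 to 0.145 for dividing cells (0.055 under quantile normalization), −0.07 to 0.33 for glutathione synthesis, −0.28 to 0.18 for haem synthesis, −0.346 to 0.335 for Gpx1 and −0.46 to 0.11 for Gsr, so none of these has a settled sign. The cause of these shifts was not tested. The dimmest member, 1453111_a_at, had the widest spread within groups of the 4, and what limits it was not tested.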
